A study of Mus musculus with 4 samples.

Results

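Levels of 10 genes of the T cell receptor complex, its coreceptors and the receptors that hold back or help T cell activation were followed in mouse lung across surgery and an inhaled agent. They were Cd3d, Cd3e, Cd3g, Cd4, Cd8a, Cd8b1, Pdcd1, Ctla4, Lag3 and Icos, chosen by name out of 27195 genes named on the array, and 16 probes carried those names. The 4 groups were C57BL/6J mice with ORX that inhaled PPE (ORX/PPE), mice with ORX that inhaled PBS (ORX/PBS), mice with a sham operation that inhaled PPE (sham/PPE) and mice with a sham operation that inhaled PBS (sham/PBS). The labels give 3 weeks for the agent in every group, without saying whether this is the length of dosing or the time since it. ORX is read here as orchiectomy, the removal of the testes, because the series is about testosterone deficiency. PPE is read as porcine pancreatic elastase, an enzyme that breaks down elastin and is used to model emphysema, and PBS is its saline vehicle. Each group was 1 array hybridised with lung RNA pooled from 5 mice, so the spread between mice was not measured and no difference between 2 groups could be tested. The age of the mice is not given in the sources used here. In whole-lung RNA, fewer cells of a type and less RNA per cell cannot be told apart.

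The CD3 chains pair with the antigen-binding chains of the T cell receptor and carry its signal into the cell. CD4 binds MHC class II molecules and marks helper and regulatory T cells, whereas the CD8 alpha and beta chains together bind MHC class I molecules and mark cytotoxic T cells. PD-1, CTLA-4 and LAG-3 are inhibitory receptors, known as checkpoints, that are induced on activated T cells, and ICOS is a costimulatory receptor of the same activated state. Several of these genes are not exclusive to T cells in mice: Cd4 and Cd8a are also made by some dendritic cells, Lag3 by NK cells and plasmacytoid dendritic cells, and Icos by type 2 innate lymphoid cells.

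The probe that was brightest for each gene gave its level. Probe sequences are shown because a level depends on where in the transcript its probe lies. For 3 of these probes a 30-base stretch is printed around the letters AATAAA, the polyadenylation signal, in capitals. They were the Cd3d probe at chr9:44794452-44794511 on the plus strand, the Cd3e probe at chr9:44806828-44806887 on the minus strand and the Cd4 probe at chr6:124814711-124814770 on the minus strand (mm9, from the array files).
Cd3d: cttcccctgtgatcaaccAATAAAgacgtt
Cd3e: tctgctaatgcaaaaggcAATAAAgtgtat
Cd4: ttcctgagctgacagaaaAATAAAggctat

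For the genes whose levels differed most, and for the CD8 alpha chain, the first 30 bases of the probe are given. The Cd8b1 probe lies at chr6:71286937-71286996 and the Cd8a probe at chr6:71328911-71328970, both on the plus strand, and the Pdcd1 probe at chr1:95935064-95935123 on the minus strand (mm9).
Cd8b1: gaactcccacaccaccatgtactcttcttg
Cd8a: cctgaaggaactaagagtcacccatggtcc
Pdcd1: aaggaaagggggatataaccttgacgcaaa

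Second probes further upstream in the transcript allowed a gene to be read at another place. The whole 60 bases are printed for those of Cd3d, Cd4 and Cd8a, which are compared with the brightest probe in the results.
Cd3d upstream: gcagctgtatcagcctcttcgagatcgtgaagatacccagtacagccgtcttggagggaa
Cd4 upstream: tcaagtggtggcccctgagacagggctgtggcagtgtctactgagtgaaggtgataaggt
Cd8a upstream: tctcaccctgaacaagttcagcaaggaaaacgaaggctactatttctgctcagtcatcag

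All members except Pdcd1 have another member as neighbour in the RefSeq annotation. Cd3g, Cd3d and Cd3e are direct neighbours on chromosome 9, with 0 protein-coding genes between them. Cd8b1 and Cd8a are neighbours on chromosome 6, as are Cd4 and Lag3, and Ctla4 lies between Cd28 and Icos on chromosome 1. RefSeq promoters (GRCm38.p6) were matched for 6 of the 10 members. The 250 bases before the transcription start are printed for the 3 CD3 genes, whose levels kept the same order over the arrays, and for Pdcd1, whose order differed. Capitals mark an ETS core (AGGAAG) or an E-box (CAGNTG) on either strand.
Cd3d (chr9:44981536-44981785, plus strand): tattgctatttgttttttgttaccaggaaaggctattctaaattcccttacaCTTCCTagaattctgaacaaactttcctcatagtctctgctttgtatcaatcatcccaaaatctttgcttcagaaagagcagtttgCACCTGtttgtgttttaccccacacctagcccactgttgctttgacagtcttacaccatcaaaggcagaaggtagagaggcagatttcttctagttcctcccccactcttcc
Cd3e (chr9:45009612-45009861, minus strand): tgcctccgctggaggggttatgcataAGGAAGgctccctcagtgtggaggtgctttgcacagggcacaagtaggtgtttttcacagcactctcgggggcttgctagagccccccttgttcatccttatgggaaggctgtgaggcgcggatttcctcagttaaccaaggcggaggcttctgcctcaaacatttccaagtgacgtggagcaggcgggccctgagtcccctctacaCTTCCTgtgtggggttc
Cd3g (chr9:44980432-44980681, minus strand): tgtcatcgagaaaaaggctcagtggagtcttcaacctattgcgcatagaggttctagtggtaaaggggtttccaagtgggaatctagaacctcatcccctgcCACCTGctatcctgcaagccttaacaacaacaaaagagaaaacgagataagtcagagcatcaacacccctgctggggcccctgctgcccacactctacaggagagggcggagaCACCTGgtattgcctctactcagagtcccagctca
Pdcd1 (chr1:94052554-94052803, minus strand): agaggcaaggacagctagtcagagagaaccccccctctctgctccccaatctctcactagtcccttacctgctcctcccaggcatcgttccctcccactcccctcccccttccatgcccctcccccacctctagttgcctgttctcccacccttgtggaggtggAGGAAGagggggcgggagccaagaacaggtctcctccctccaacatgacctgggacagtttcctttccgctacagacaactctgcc
The ETS core occurred 198 bases before the start in Cd3d, 224 and 17 bases before it in Cd3e, 86 bases before it in Pdcd1 and 59 bases before it in Ctla4. The E-box occurred 112 bases before the start in Cd3d, 148 and 35 bases before it in Cd3g and 19 bases before it in Ctla4. Among 32851 promoter windows of the same length, 29.5% held the ETS core and 44.8% the E-box. The RUNX core TGTGGT, held by 14% of all windows, and TATAAA, held by 12.4%, were not among the letters of the 6 windows. These matches describe letters only.

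Levels are given as scaled signal, the processed fluorescence intensity of the probe after the 75th percentile of each array was set to a common 635.1. Between 40636 and 42649 of 56605 probes were well above background per array, and the brightest probe of each of the 10 members was well above background on all 4 arrays. The scanner software assigned each spot an error of 10% plus a part that grows at low signal, which gave an error of 0.20 (log2) for a difference between arrays at bright probes and up to 0.30 at the dimmest member. This error covers the spot and not the mice. Lung genes were well above background on all 4 arrays (12 of 12 listed). The sham/PPE array stood apart in RNA of other organs: the 11 listed genes of heart, fat and germ cells summed to 16806 on ORX/PPE, 34148 on ORX/PBS, 104576 on sham/PPE and 41670 on sham/PBS. The comparisons were PPE in ORX (ORX/PPE minus ORX/PBS), PPE in sham (sham/PPE minus sham/PBS), ORX under PPE (ORX/PPE minus sham/PPE) and ORX under PBS (ORX/PBS minus sham/PBS), all on the log2 scale. PPE in sham and ORX under PPE rest on the array that stood apart, and PPE in ORX and ORX under PBS do not use it. Each PPE comparison shares an array with each ORX comparison, while the 2 PPE comparisons share none, nor do the 2 ORX comparisons.

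The CD3 chains were lowest on the sham/PBS array and highest on the ORX/PBS array. Cd3d, the delta chain, had a scaled signal of 1887 on ORX/PPE, 2013 on ORX/PBS, 1735 on sham/PPE and 1203 on sham/PBS. Cd3e, the epsilon chain, had 1212 on ORX/PPE, 1240 on ORX/PBS, 1101 on sham/PPE and 965 on sham/PBS. Cd3g, the gamma chain, had 578 on ORX/PPE, 641 on ORX/PBS, 505 on sham/PPE and 461 on sham/PBS. The 3 chains therefore had the same order of arrays, with sham/PBS below sham/PPE, then ORX/PPE, then ORX/PBS. On the log2 scale ORX exceeded sham under PPE by 0.12 for Cd3d, 0.14 for Cd3e and 0.19 for Cd3g, and under PBS by 0.74 for Cd3d, 0.36 for Cd3e and 0.48 for Cd3g. In ORX the PPE differences were -0.09 for Cd3d, -0.03 for Cd3e and -0.15 for Cd3g, and in sham they were 0.53 for Cd3d, 0.19 for Cd3e and 0.13 for Cd3g. Of these 12 differences, Cd3d in sham with PPE and Cd3d and Cd3g in ORX under PBS were at least 2 errors from 0.

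The second probes of the CD3 chains gave partly the same picture. The upstream Cd3d probe differed by 0.59 between ORX and sham under PBS and by 0.38 between PPE and PBS in sham, each within 1 error of the brightest probe's value. The other Cd3e probe had only 69.4 on ORX/PPE, 86.8 on ORX/PBS, 83.7 on sham/PPE and 63.9 on sham/PBS, and it differed by -0.27 for ORX under PPE, where the brighter probe gave 0.14. Averaging both Cd3e probes gave -0.07 there. Cd247, the zeta chain that completes the signalling part of the receptor, is not a member and was singled out after its values were seen. It had 1965 on ORX/PPE, 2063 on ORX/PBS, 1928 on sham/PPE and 2001 on sham/PBS. Its differences all lay between -0.07 and 0.04.

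**Figure D1:**
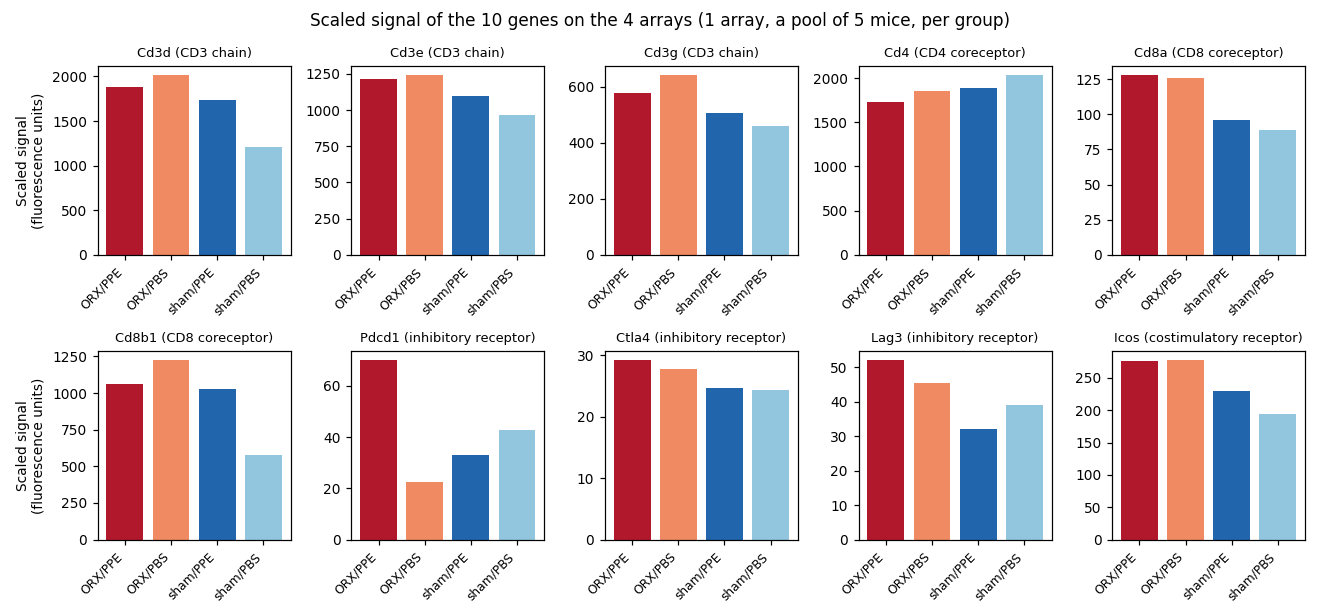
Bars give the scaled signal in fluorescence units of the brightest probe of each of the 10 genes on the ORX/PPE, ORX/PBS, sham/PPE and sham/PBS arrays; each bar is 1 array, a pool of 5 mice, each panel has its own axis from 0, and no error is drawn. Cd8b1 is lowest on sham/PBS at 581, and Pdcd1 is highest on ORX/PPE at 69.9.

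The coreceptors of the helper and cytotoxic lineages did not share an order of arrays. Cd4 had a scaled signal of 1730 on ORX/PPE, 1856 on ORX/PBS, 1892 on sham/PPE and 2032 on sham/PBS, so that sham/PBS was its highest array and ORX/PPE its lowest. Cd8b1, the beta chain, had 1062 on ORX/PPE, 1224 on ORX/PBS, 1029 on sham/PPE and 581 on sham/PBS. Cd8a, the alpha chain, had 128 on ORX/PPE, 126 on ORX/PBS, 95.6 on sham/PPE and 88.5 on sham/PBS. Both CD8 chains were lowest on sham/PBS, and both ORX arrays were above both sham arrays for either chain.

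The ORX difference under PBS was largest for Cd8b1 among the members, at 1.08 (error 0.20), a 2.11-fold higher signal in ORX/PBS than in sham/PBS. Under PPE the same difference was 0.04. PPE differed from PBS by -0.21 in ORX, and exceeded it by 0.83 in sham, 1.77-fold. The 2 PPE differences, which share no array, lay -1.03 apart (ORX minus sham, error 0.29), and 1.61% of 19320 genes had such a value at -1 or below. Over all settings tried the ORX difference of Cd8b1 under PBS lay between 1.05 and 1.12. Cd8b1 has no further probe and its level is 1 spot an array, so every setting reads the same spots. Cd8a differed by 0.42 under PPE and 0.51 under PBS between ORX and sham, each at least 2 errors of 0.21, and by 0.02 in ORX and 0.11 in sham between PPE and PBS. With normexp correction its ORX differences were 0.17 under PPE and 0.27 under PBS, and averaging its 2 probes turned the one under PPE to -0.05. Cd4 differed by -0.13 for ORX under either agent and by -0.10 for PPE after either surgery, each within its error of 0.20.

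Set against Cd4, the CD8 chains stood higher in ORX under PBS. The ORX difference under PPE exceeded that of Cd4 by 0.17 for Cd8b1 and 0.55 for Cd8a, with an error of 0.29 each. Under PBS the same excess was 1.21 for Cd8b1 and 0.64 for Cd8a. For PPE against PBS it was -0.10 for Cd8b1 and 0.12 for Cd8a in ORX, and 0.93 for Cd8b1 and 0.21 for Cd8a in sham. The excess of Cd8b1 thus passed 2 errors in the comparisons that use sham/PBS and not in the others. The weaker probes bear on these differences. The upstream Cd4 probe had 29.4 on ORX/PPE, 23.4 on ORX/PBS, 24.8 on sham/PPE and 23.5 on sham/PBS, with ORX differences of 0.24 under PPE and -0.01 under PBS. Another Cd4 probe was well above background on sham/PBS (14.5) only and not on the ORX arrays or sham/PPE, and its values for ORX were 0.94 under PPE and -1.59 under PBS. The upstream Cd8a probe was well above background on ORX/PBS (21.1) and sham/PPE (17.9) only. When all probes of a gene were averaged, these dim ones included, the ORX difference under PPE became 0.35 for Cd4 and -0.05 for Cd8a, and the excess over Cd4 became -0.31 for Cd8b1 and -0.40 for Cd8a.

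Pdcd1, which encodes PD-1, had the widest range of the members. Its scaled signal was 69.9 on ORX/PPE, 22.3 on ORX/PBS, 32.9 on sham/PPE and 42.9 on sham/PBS. The highest array was thus ORX/PPE and the lowest ORX/PBS, an order shown by no other member. PPE exceeded PBS by 1.65 (error 0.25) in ORX, a 3.14-fold difference, and stood below PBS by -0.38 in sham. ORX exceeded sham by 1.09 under PPE, 2.12-fold, and stood below it by -0.95 under PBS. The PPE differences after the 2 surgeries lay 2.03 apart (ORX minus sham, error 0.36), and 1.27% of 19320 genes had such a value at 1 or above. Each of these levels is 1 spot of low signal, and with normexp background correction, which adds an offset of 50, the differences were 0.74 for PPE in ORX and 0.27 for ORX under PPE, neither of them 2-fold.

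Ctla4 and Lag3, the other inhibitory receptors, were dim. Ctla4 had 29.2 on ORX/PPE, 27.7 on ORX/PBS, 24.6 on sham/PPE and 24.4 on sham/PBS, and none of its differences exceeded its error of 0.26 to 0.30. Lag3 had 52.1 on ORX/PPE, 45.5 on ORX/PBS, 32.1 on sham/PPE and 39.1 on sham/PBS. Both ORX arrays were above both sham arrays for either gene, but with normexp correction the ORX differences of Ctla4 turned to -0.07 under PPE and -0.09 under PBS, and that of Lag3 under PBS to -0.01. The ORX difference of Lag3 under PPE was 0.70 (error 0.24), a 1.62-fold higher signal, and became 0.10 with normexp correction and -0.11 when its second probe, which was well above background on no array, was averaged in. Lag3 lies beside Cd4 in the genome, and Cd4 differed by -0.13 in the same comparison.

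Icos, the costimulatory receptor, had a scaled signal of 276 on ORX/PPE, 277 on ORX/PBS, 230 on sham/PPE and 195 on sham/PBS. Its order of arrays was that of the CD3 chains, with both ORX arrays above both sham arrays. ORX exceeded sham by 0.27 under PPE and 0.51 under PBS, and PPE differed from PBS by -0.01 in ORX and 0.24 in sham. Only the ORX difference under PBS was at least 2 errors from 0.

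**Figure D2:**
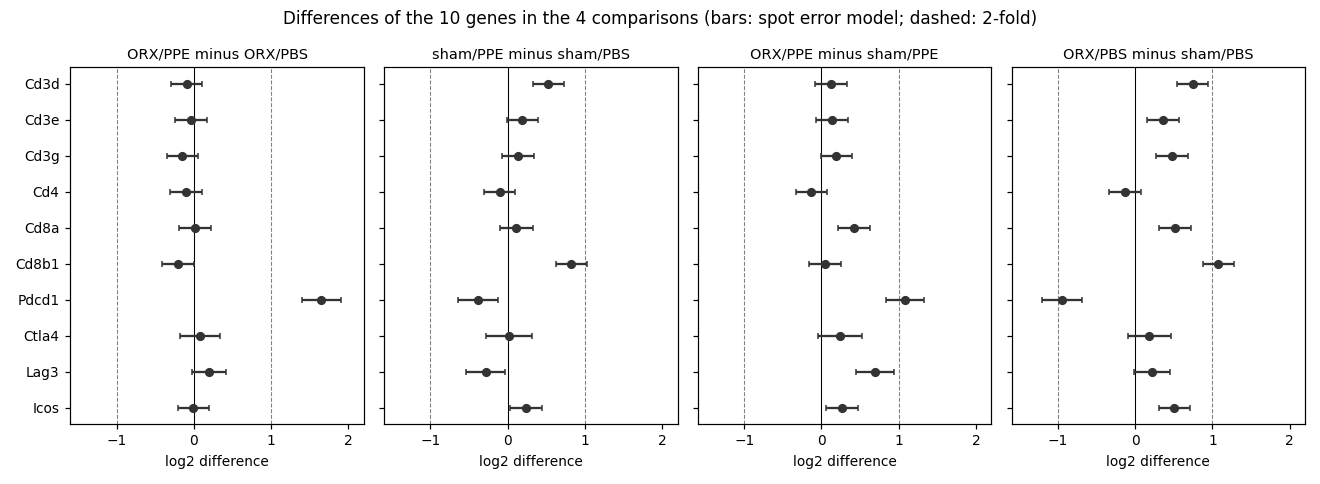
The horizontal axis is the log2 difference of each of the 10 genes, with a panel for each of the 4 comparisons; points are differences between 2 arrays, bars 1 error of the difference from the scanner software's spot error, and dashed lines mark 2-fold. Cd8b1 reaches 1.08 for ORX under PBS, and Pdcd1 reaches 1.65 for PPE in ORX.

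Few members passed 2-fold. For PPE in ORX 1 of 10 members was at least 2-fold higher (Pdcd1) and 0 were lower, where 0.673% of 20811 genes were higher and 0.389% lower. For PPE in sham 0 members passed in either direction, where 1.32% of 20846 genes were higher and 0.441% lower. For ORX under PPE 1 member was again higher (Pdcd1) and 0 lower, where 0.337% of 20778 genes were higher and 1.45% lower. For ORX under PBS 1 member was higher (Cd8b1) and 0 lower, where 0.635% of 20940 genes were higher and 1.17% lower. At 1.5-fold Pdcd1 was past the threshold for PPE in ORX, where 3.35% of genes were higher and 2.6% lower, and Cd8b1 was higher for PPE in sham, where 5.51% were higher and 3.84% lower. For ORX under PPE Pdcd1 and Lag3 were higher, where 2.34% of genes were higher and 4.95% lower. For ORX under PBS Cd3d and Cd8b1 were higher and Pdcd1 lower, where 4.15% of genes were higher and 5.3% lower. Over the 4 arrays, Cd8b1 and Pdcd1 were the members whose highest and lowest array were 2-fold or more apart, as were 4.17% of 19320 genes.

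The members' median difference was 0.22 for ORX under PPE, where the median of all genes was -0.03, and 9 of 10 members and 44.1% of all genes lay above 0. It was 0.42 for ORX under PBS, with all genes at 0.01, and 8 members and 51.4% of all genes above 0. It was -0.02 for PPE in ORX, with all genes at -0.01, and 4 members and 47.3% of all genes above 0. It was 0.12 for PPE in sham, with all genes at 0.04, and 7 members and 57.0% of all genes above 0. The lowest of the 4 arrays was ORX/PPE for 1 of 10 members (Cd4) and 27.9% of 19320 genes, ORX/PBS for 1 member (Pdcd1) and 20.6% of genes, sham/PPE for 1 member (Lag3) and 17.6% of genes, and sham/PBS for the other 7 members and 33.9% of genes. The highest was ORX/PPE for 4 members and 22.6% of genes, ORX/PBS for 5 members and 21.5%, sham/PPE for 0 members and 28.6%, and sham/PBS for 1 member and 27.3%. ORX was above sham under both agents for 8 members and 25% of genes. PPE was below PBS in ORX and above it in sham for 5 members and for 31.9% of genes.

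The 4 arrays allow a test only under a model that assumes the agent acts alike after either surgery. In that limma fit, which leaves 1 residual degree of freedom to be pooled over genes, 0 of 20656 genes passed an adjusted p of 0.05 for ORX or for PPE, and 0 members did. At an unadjusted p under 0.05 the fit named 1653 genes (8%) and 1 member, Cd8a, for ORX, and 1189 genes (5.76%) and 0 members for PPE. The members so named for ORX varied with the setting, as did the number of all genes named. With normexp correction they were 5 (Cd3d, Cd3e, Cd3g, Cd8b1 and Icos, without Cd8a), beside 2604 of 20656 genes. With only genes above background on all arrays they were 3 (Cd8a, Icos and Lag3), beside 1770 of 19320 genes. Median centring named 2 (Cd8a and Lag3), beside 1663 of 20656 genes. Averaged probes named 0 members and 1490 of 20671 genes, and no filter 0 members and 1736 of 27195 genes. The ORX effect of Cd8a was 0.47 (SE 0.14, limma adjusted p = 0.569). That of Cd8b1 was 0.56 (SE 0.28, limma adjusted p = 0.735), and that of Pdcd1 0.07 (SE 0.51, limma adjusted p = 0.993). For Cd8b1 and Pdcd1 the PPE differences had opposite signs after the 2 surgeries, which this model cannot describe. The signs were also opposite for Cd3d, Cd3e, Cd3g, Lag3 and Icos, with the gap between surgeries within its error for Cd3e, Cd3g and Icos.

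Other genes of the T cell receptor pathway and T lineage, 34 in all and each well above background on the 4 arrays, lay mostly above 0 in the ORX comparisons. Of the 34, 27 were above 0 for ORX under PPE, with a median of 0.21, and 31 under PBS, with a median of 0.37. None passed 2-fold in any comparison. For ORX under PBS the highest were Cd5 (0.87), which dampens receptor signalling, Cd6 (0.82), a related surface receptor, and Sit1 (0.82), a signalling adaptor. Cd28, the main costimulatory receptor, was among the lowest at -0.07. Cd5 had a scaled signal of 694 on ORX/PPE, 822 on ORX/PBS, 587 on sham/PPE and 450 on sham/PBS, again lowest on sham/PBS. For PPE the medians were -0.01 in ORX, with 15 above 0, and 0.27 in sham, with 28 above 0. Of all genes, 44.1% lay above 0 for ORX under PPE, 51.4% for ORX under PBS, 47.3% for PPE in ORX and 57.0% for PPE in sham. The same shares stand beside the counts of the lists that follow. This list and those that follow were chosen with earlier results of these data known.

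Genes of the helper and regulatory lineage had a median of 0.15 for ORX under PPE (13 of 19 measured genes above 0) and of 0.38 for ORX under PBS (16 of 19), which was 0.17 with normexp correction. The PPE medians were 0.03 in ORX and 0.11 in sham. Gata3, the regulator of type 2 helper cells, differed by 0.87 and Foxp3, the regulator of regulatory T cells, by 0.74 for ORX under PBS. Ikzf4 was the lowest of the list there at -0.68, and sham/PBS was its highest array, with a scaled signal of 445. Foxp3 had a scaled signal of 46.6 on ORX/PPE, 45.3 on ORX/PBS, 39.4 on sham/PPE and 27.1 on sham/PBS, with sham/PBS lowest. Cd40lg, Il10 and Il17a were well above background on no array. Gata3 is also a type 2 innate lymphoid gene, and that list as a whole had medians of 0.21 for ORX under PPE and 0.05 under PBS.

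Genes of the CD8 lineage and of cytotoxic cells had a median of 0.07 for ORX under PPE, with 9 of 17 above 0, and 0.52 for ORX under PBS, with 16 of 17 above 0; averaging the probes of a gene turned the value under PPE to -0.01, and normexp correction gave 0.31 under PBS. The PPE medians were -0.12 in ORX and 0.34 in sham. Gzmk, a granule protease of memory CD8 T cells, had a scaled signal of 36.6 on ORX/PPE, 38.5 on ORX/PBS, 14.5 on sham/PPE and 16.2 on sham/PBS. Both ORX arrays were above both sham arrays, by 1.34 under PPE and 1.25 under PBS, and with normexp correction these became 0.16 under PPE and 0.30 under PBS. Itgae, an integrin of tissue-resident T cells that dendritic cells also carry, differed by 0.84 for ORX under PBS. Xcl1, a chemokine of activated CD8 T and NK cells, had the lowest PPE difference in ORX at -0.84.

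The list of other checkpoint genes holds receptors along with nuclear factors (Tox, Tox2), ectoenzymes (Entpd1, Nt5e), ligands (Fgl1, Lgals3) and the lysosomal protein Laptm5. It had medians between 0.15 and 0.24 in the 4 comparisons over 13 measured genes, and Tigit and Cd160 were well above background on no array. Tnfrsf9, the costimulatory receptor 4-1BB, had a scaled signal of 130 on ORX/PPE, 63.5 on ORX/PBS, 125 on sham/PPE and 66.2 on sham/PBS. Both PPE arrays were above both PBS arrays, by 1.03 in ORX and 0.92 in sham, and the ORX value became 0.72 with normexp correction. Btla, an inhibitory receptor of B and T cells, differed by 0.91 for ORX under PBS and 0.85 for PPE in sham. Among the 14 ligands and MHC genes, Pdcd1lg2, which encodes the PD-1 ligand PD-L2, had 47.7 on ORX/PPE, 68.7 on ORX/PBS, 53.8 on sham/PPE and 34.7 on sham/PBS. Its array order was thus not that of Pdcd1, since ORX/PBS was its highest array and the lowest of Pdcd1. Both genes are dim, and the ORX difference of Pdcd1lg2 under PBS, 0.98, became 0.38 with normexp correction. Cd274, which encodes PD-L1, was lower by -0.35 in ORX under PPE.

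**Figure D3:**
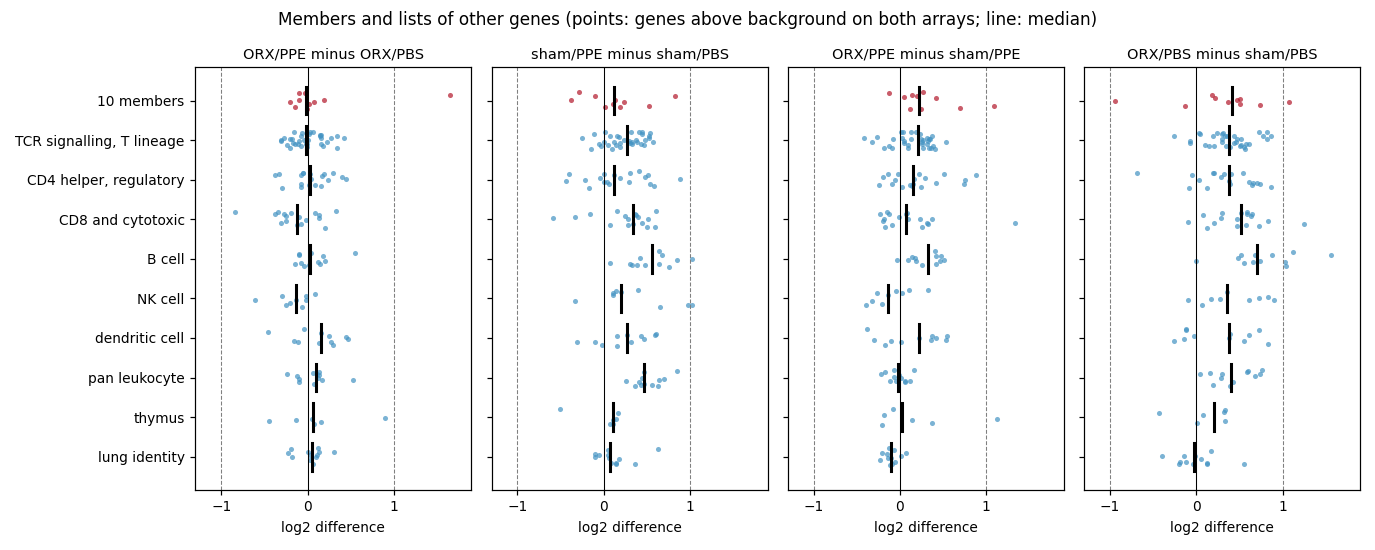
The horizontal axis is the log2 difference, with a panel for each of the 4 comparisons; points are genes above background on both arrays, for the 10 members (red) and 9 lists of other genes (blue), thick lines are medians and dashed lines mark 2-fold. The CD8 lineage and cytotoxic list has a median of 0.07 for ORX under PPE and 0.52 for ORX under PBS.

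Summed markers of B cells, NK cells and leukocytes at large were also lowest on sham/PBS, and those of dendritic cells were so only without Siglech. The 12 pan-leukocyte genes summed to 65661 on ORX/PPE, 62349 on ORX/PBS, 64684 on sham/PPE and 44087 on sham/PBS, and all 12 were above 0 for ORX under PBS and for PPE in sham, the comparisons that use sham/PBS. The 12 B cell genes summed to 26780 on ORX/PPE, 25213 on ORX/PBS, 20251 on sham/PPE and 13217 on sham/PBS. Their median was 0.71 for ORX under PBS, where 4 of them were at least 2-fold higher, as were 0.635% of 20940 genes. The 9 NK cell genes summed to 20817 on ORX/PPE, 23468 on ORX/PBS, 22475 on sham/PPE and 13748 on sham/PBS. Sham/PBS was thus the lowest array for these sums as it was for the CD3 chains, Cd8a and Cd8b1. The 13 dendritic cell genes summed to 112238 on ORX/PPE, 100860 on ORX/PBS, 110648 on sham/PPE and 114162 on sham/PBS, so that sham/PBS was their highest array. Most of that sum was Siglech, a plasmacytoid dendritic cell receptor, at 89231 on ORX/PPE, 79940 on ORX/PBS, 88696 on sham/PPE and 95475 on sham/PBS. The order of the sum was that of Siglech, and the rest of the list summed lowest on sham/PBS. The median difference of the 11 measured dendritic genes was 0.38 for ORX under PBS. The neutrophil list had a median of 0.35 for PPE in ORX and 1.70 for PPE in sham. The part of these other cells in the members' differences was not tested.

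Thymus and lymph node hold T cells too, and their own marker genes were therefore read on the same arrays. Of 12 thymocyte and thymic epithelial genes, Rag1, Rag2, Ptcra, Psmb11 and Foxn1 were well above background on no array, and 6 were so on all 4. The list summed to 2434 on ORX/PPE, 2316 on ORX/PBS, 2492 on sham/PPE and 2261 on sham/PBS. Dntt, an enzyme of early lymphocyte receptor assembly, had 152 on ORX/PPE, 81.3 on ORX/PBS, 69.6 on sham/PPE and 64.8 on sham/PBS. Its ORX difference under PPE was 1.12 and became 0.55 with normexp correction. The lymph node stroma list had a median of -0.19 for ORX under PPE and 0.17 for ORX under PBS, and Madcam1 was well above background on no array. It summed to 11354 on ORX/PPE, 11871 on ORX/PBS, 13797 on sham/PPE and 10109 on sham/PBS, so that sham/PBS was its lowest array too. For ORX under PBS 4 of its 6 measured genes were above 0, with Fcer2a at 0.92 and Cxcl13 at 0.60, and 2 were below. The part of lymph node RNA in the members' differences was not tested.

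Genes most like a member in profile over the 4 arrays were found by the root mean square distance between log2 profiles, each centred on its mean. For the mean of the CD3 chains they were Got2 (0.010), E130112N10Rik, Fcgrt, Urod and Gm16404 (0.018), among 11631 genes compared. None of these genes is on the T cell lists. By the same distance Icos ranked 93, Cd8a 894, Ctla4 1831, Cd8b1 4339, Lag3 4530, Cd4 5706 and Pdcd1 11421. For Cd8b1 they were Gimap7 (0.014), Slamf6, DXBay18, H2-DMb2 and Fcmr (0.060), among 4207 genes compared. Gimap7 is a GTPase of lymphocytes, Slamf6 a receptor of T, B and NK cells, and Fcmr a gene of the B cell list. Cd8a ranked 812 for likeness to Cd8b1. For Cd4 they were Pigv (0.004), Ccdc159, Eif4g2, Tardbp and Als2cl (0.009), among 17912 genes compared. With 4 arrays such likeness is a description of these arrays only.

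**Figure D4:**
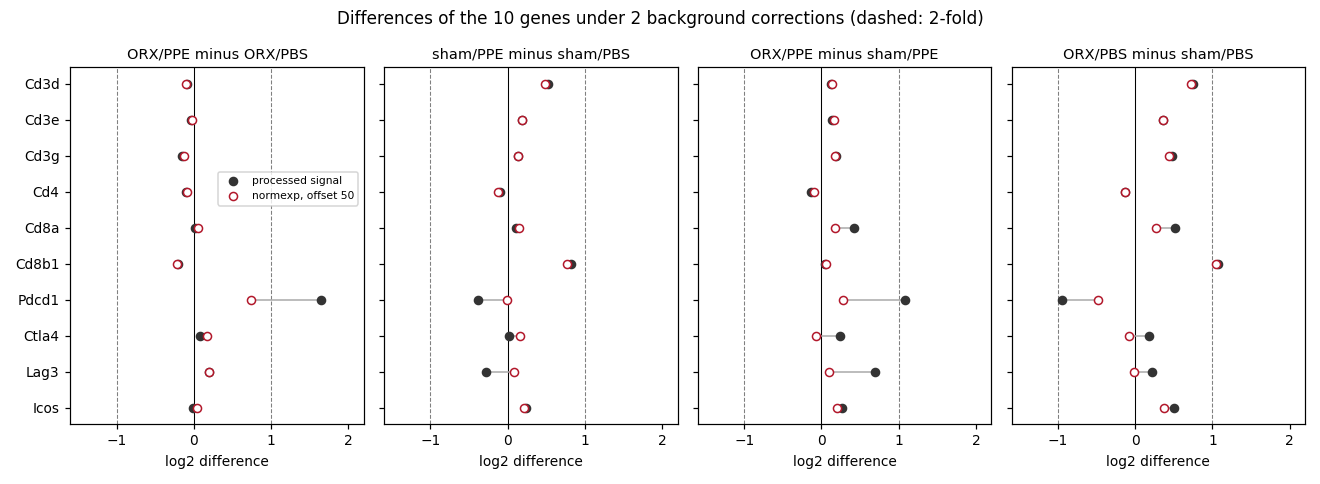
The horizontal axis is the log2 difference of each of the 10 genes in the 4 comparisons, with filled points from the processed signal, open points from normexp correction with an offset of 50, and dashed lines at 2-fold. The points part most for Pdcd1 and Lag3, with Pdcd1 at 0.74 in place of 1.65 for PPE in ORX, and Cd8b1 stays above 1 for ORX under PBS.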

How the data were processed

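Total RNA of lung was pooled from 5 mice a group, labelled with Cy3 and hybridised to 1-colour Agilent arrays of design 074809, all 4 on 1 slide in 1 scan. The deposited values are processed linear intensity per spot, background-subtracted, per the file headers. These name Feature Extraction version 10.7.1.1, whereas the submitters' processing notes name 9.5.1.1, and which is right was not settled. The authors' value table holds linear intensity with a median of 71.5 in every column and differs from quantile normalization by a median of 0.00364 (log2).

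From the deposited intensity, control spots and 31 to 54 outlier spots an array were left out of 59305, and 0 were saturated. Spots of a probe were averaged, log2 taken, and the 75th percentile of each array (621.5 on ORX/PPE, 715.1 on ORX/PBS, 591.7 on sham/PPE, 618.5 on sham/PBS) subtracted. Probe names were updated through the RefSeq table of GRCm38.p6 (32994 of 56605 by accession, 10224 by symbol, 520 by synonym, 2574 kept as in the file, 10293 unnamed). The brightest probe stood for a gene. A gene well above background on 1 of 2 arrays had a bound as its difference. A difference was called at 2-fold. The additive test used limma 3.58.1 with Benjamini-Hochberg adjustment on genes well above background on at least 2 arrays; the 2-fold calls and this fit were tested on simulated data. With 1 array a group, precision is limited by their number. Alternatives were normexp, quantile normalization, median centring, the value table, both filters on dim probes, the mean of probes and 1.5-fold.

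The members and lists were chosen with earlier results of these data known. Named beyond the members were, from each list and comparison, up to 3 of the highest and 3 of the lowest genes, defining markers not above background, and the 5 genes of most like profile.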

Additional observations from a re-analysis of the deposited data

Results flagged for a closer look

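Pdcd1 had opposite signs for PPE against PBS after the 2 surgeries, and for ORX against sham under the 2 agents. The PPE difference in ORX minus that in sham was 2.03, which is by construction also the ORX difference under PPE minus that under PBS. With normexp correction it was 0.75.

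For Cd8b1 the PPE difference was below 0 in ORX and above 0 in sham, and the value in ORX minus that in sham was -1.03. The CD3 chains had the same opposite signs with smaller values, -0.62 for Cd3d, -0.28 for Cd3g and -0.22 for Cd3e, as had Icos at -0.24. The error of each was 0.29, and the values of Cd3g, Cd3e and Icos lay within it. The Icos sign in ORX rests on a PPE difference of -0.01, which became 0.04 with normexp correction. Lag3 had the opposite order, above 0 in ORX and below 0 in sham, at 0.48, which became -0.45 when its probes were averaged. These differences between surgeries were not tested, since each group is 1 array. Opposite signs in the order of Cd8b1 were found in 31.9% of 19320 genes.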

How the results depend on the processing

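Over 8 alternatives, 198 values of the main results moved by less than 0.20 (log2), or 1.5 times for counts, and 49 by more; for single genes and lists these were 551 and 37. Quantile normalization, median centring and the authors' value table moved none of the main results. Some of the unmoved values could not have moved. Both filters on dim probes leave the members' differences as they were, since every member was well above background on every array. Median centring shifts a whole array and so cannot change an excess over Cd4. The authors' value table is close to quantile normalization, so it nearly repeats that setting. No paired analysis was possible because each group is 1 array and its number was given in accession order only. Leaving out a replicate was likewise not possible, and the slide as a block was not run, since all arrays share 1 slide and 1 scan.

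With normexp, whose offset of 50 compresses dim signals by construction, genes past 2-fold were 17 higher and 10 lower for PPE in ORX (140 and 81 as reported), 67 and 9 for PPE in sham (275 and 92), 4 and 91 for ORX under PPE (70 and 301), and 31 and 59 for ORX under PBS (133 and 246). Members higher were 0 for PPE in ORX and 0 for ORX under PPE. The excess of Cd8a over Cd4 for ORX was 0.27 under PPE and 0.40 under PBS. The limma fit then called 5 genes for PPE and 6 for ORX, with 0 members.

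With only genes above background on all arrays, the counts were 71 higher and 49 lower for PPE in ORX, 172 and 46 for PPE in sham, 39 higher for ORX under PPE and 159 lower for ORX under PBS. With no filter on dim probes they were 920 and 876, 1270 and 784, 714 and 1345, and 901 and 1069, in the same order of comparisons. At 1.5-fold they were 698 and 542, 1148 and 800, 487 and 1029, and 869 and 1109, and the members past it were 1 higher for PPE in sham, 2 higher for ORX under PPE and 2 higher and 1 lower for ORX under PBS.

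With probes averaged per gene, the excess of Cd8a over Cd4 for PPE was -0.82 in ORX and 0.83 in sham, and for ORX it was -0.40 under PPE and 1.26 under PBS. That of Cd8b1 for PPE was -0.66 in ORX and 1.29 in sham, and for ORX -0.31 under PPE and 1.65 under PBS. Cd8b1 has no further probe on the array, so its own differences were unchanged and its excess moved through Cd4 alone. With its dim probes averaged in, Cd4 came to -0.57 for ORX under PBS and 0.46 for PPE in ORX. The members' median difference between surgeries was then -0.37, against -0.16 as reported. These shifts come from the further probes that enter the means.

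Low signal limits Pdcd1, Ctla4 and Lag3, whose levels are 22.3 to 69.9 where the lowest signal well above background was 9.52 to 10.8 before scaling.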
